A study of Mus musculus with 12 samples.

Results

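The effect of the compound E18 on activated mouse astrocytes was described from 1 array treated with E18 and 1 array of the activated control. The members were all genes detected on either array at a detection p-value under 0.01, which gave 7349 of the 16593 named genes on the array: 6918 were detected on both arrays, 168 on the E18 array alone and 263 on the control array alone. The starting cells were neural stem cells (cell line Rosa25/OG2), from which astrocytes had been differentiated in serum-containing medium and matured before treatment. The activated control received 1 µg/ml lipopolysaccharide (LPS) and 10 ng/ml interferon-gamma (IFN-γ), and the E18 and E4 arrays received the same stimuli and then E18 or E4 for 4 h. The other 8 compound arrays (E5, E14, E19, E20, E21, E23, E29 and E33) were treated in the same way, and the non-activated control was cultured for 4 h with neither stimulus nor compound. The compounds are known here only by these codes, and the labels give no dose. Each group was 1 array, so no difference has a replicate check, and no standard error or p-value is given.

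LPS is sensed by Toll-like receptors, which activate NF-kB and induce cytokines and chemokines. IFN-γ signals through the JAK kinases, induces the transcription factor IRF1, and raises guanylate-binding proteins, antigen presentation genes and the checkpoint ligand PD-L1 (Cd274). Type I interferon, made after Toll-like receptor signalling, acts through interferon-stimulated response elements (ISREs) in the promoters of antiviral genes.

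Values are log2 units of background-corrected, quantile-normalised intensity of a gene's brightest probe, and a change is a difference between 2 arrays in those units. E18 had 10160 detected probes and the activated control 10281. At the detection threshold, 52 genes lay just inside (p-value 0.0088 on their better array, median 5.59) and 78 just outside (0.01, median 5.52), and none of either differed 2-fold. E29 stood apart from the other activated arrays, with 9106 detected probes and 1659 genes 2-fold different from E18. For astrocyte identity, 14 of the 16 astrocyte markers with a probe were measured, with a median change of 0.06 with E18 (in bulk RNA, fewer cells of a type and less RNA per cell cannot be told apart), and Gfap, the astrocyte intermediate filament, stood at 12.37 in the control and 12.54 with E18. Neither array detected any of 13 microglia markers or 6 endothelial markers on the platform. Some markers of other neural lineages were measured. They included 4 of 12 neuron markers, with Map2 at 11.25 and Syp at 6.98 in the control. Of 7 oligodendrocyte lineage markers with a probe only 1 was measured, Cnp at 9.21 in the control. Of 17 neural stem cell markers with a probe 7 were measured, with Nes at 10.97 in the control and 11.06 with E18.

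E18 changed few genes at 2-fold. Of the 7349 genes, 22 (0.299%) differed at least 2-fold from the activated control: 19 were lower (0.259%) and 3 were higher (0.0408%). The lower genes were Clec2d, Zbtb7c, Oasl2, Nlrc5, Lcn2, P2ry6, Gbp7, Uba7, Apobec1, Slc2a6, Dennd3, Dram1, Eif2ak2, Mlkl, Ddx58, Parp14, Gbp5, Ccrl2 and Pes1, and the higher ones Rbm15, Hmgb2 and Dusp4. All 22 were detected on both arrays, so none of these changes is a bound. Further detected probes existed for the same genes in 3 cases, 2 for lower and 1 for higher genes, and all went the same way. The median change of all measured genes was 0.01 with a standard deviation over genes of 0.26, and 78.6% of genes lay within 0.3 log2 units of the control. Differences of this number were also seen between E18 and other compounds: 6 genes differed 2-fold from E14, 10 from E23, 16 from E5 and from E21, 18 from E20 and 23 from E19. E4 and E33 were further off, with 90 and 139 genes. Both the number and the balance of directions depended on the processing. Without background correction 5 genes were called and with an offset of 50 in place of 16 there were 8, all of them lower, so that no higher gene was called under either. Of the 2-fold genes 13.6% were higher here, against 2.44% of 41 genes after scaling to a common array median, 1.39% of 72 after scaling to reference genes and 35.7% of 98 in the authors' processed values. Scaling to a common median and to reference genes moved the median of all genes to -0.10 and -0.19, respectively, and counted from that median 23 genes were lower and 2 higher under each.

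**Figure D1:**
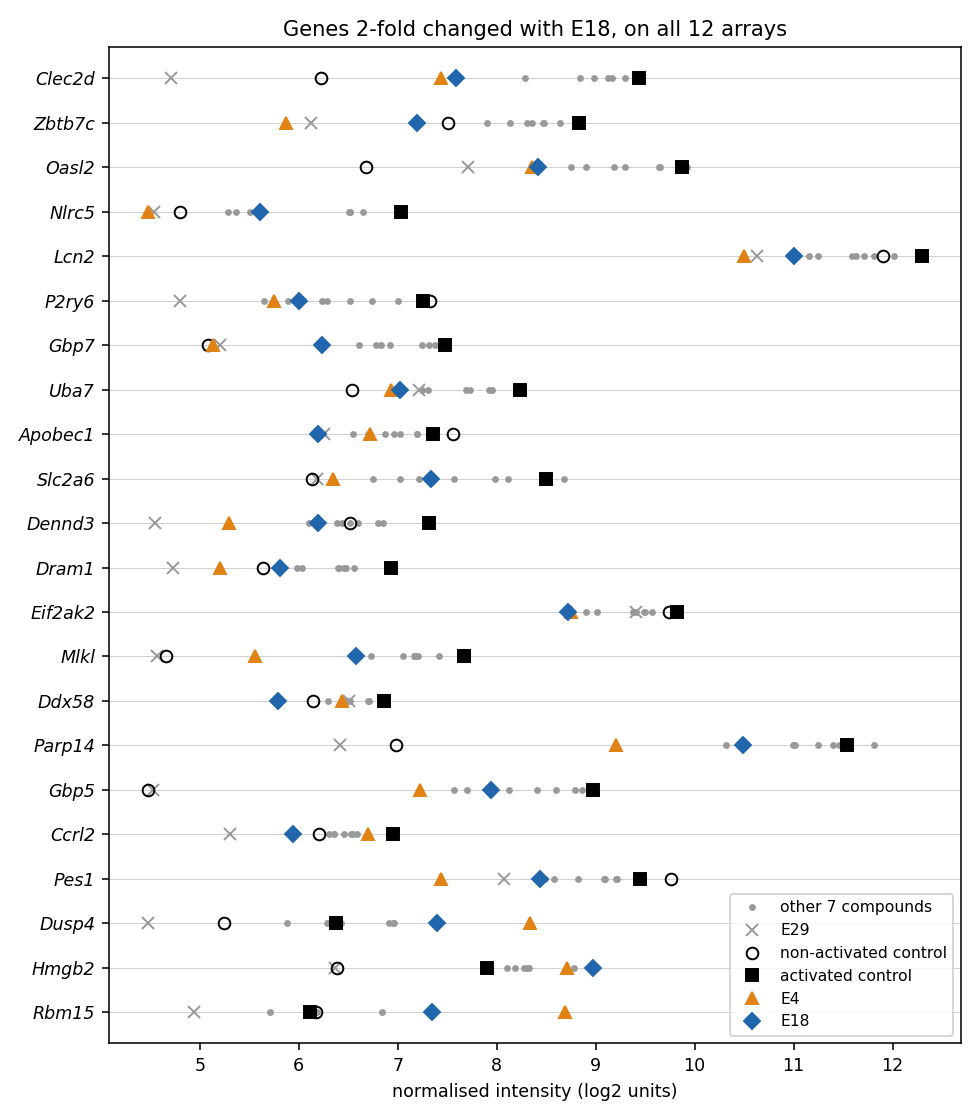
Log2 normalised intensity (x axis) of the 22 genes that differed 2-fold between E18 and the activated control (y axis), on all 12 arrays, 1 point per array. The activated control is the highest activated array for 15 of the 19 lower genes, and E18 is the lowest for 3 of them.

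Several of the lower genes have known roles in the interferon response. Clec2d, a C-type lectin-like ligand of an inhibitory natural killer cell receptor, had the largest decrease: it stood at 6.22 in the non-activated control, 9.44 in the activated control, 7.58 with E18 and 7.43 with E4. The other 8 compound arrays ran from 4.71 (E29) through a median of 9.05 to 9.44 (E21), and the lowest without E29 was 8.28. E18 was therefore 3.62-fold below the control and 2.77-fold below the median of the other 10 activated arrays, and of all activated arrays only E4 and E29 were lower.

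Oasl2, of the oligoadenylate synthetase family of antiviral proteins, stood at 9.87 in the control, 8.42 with E18 and 8.35 with E4, and the other 8 compounds had a median of 9.24. Parp14, an ADP-ribosyltransferase, stood at 6.98 without activation, 11.54 in the control and 10.49 with E18, which left it far above the non-activated level. Its fold below the control was 2.08 with E18 and 5.06 with E4. Both genes were lower on the E18 array, and neither returned to the non-activated level.

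Eif2ak2 and Ddx58, both sensors of viral RNA, were among the lower genes. Eif2ak2, the kinase PKR that is activated by double-stranded RNA, stood at 9.82 in the control and 8.72 with E18, against 8.75 with E4 and 8.90 to 9.57 with the other 8 compounds. Ddx58, which encodes the RNA sensor RIG-I, stood at 6.86 in the control and 5.79 with E18, against 6.44 with E4 and 6.29 to 6.87 with the other 8. E18 was the lowest of the 11 activated arrays for both, and also for Apobec1, a cytidine deaminase that edits RNA (7.36 in the control, 6.19 with E18, and 6.25 to 7.20 over the other 8). In the activated control, Eif2ak2 was 0.08, Ddx58 0.71 and Apobec1 -0.20 log2 units from the non-activated control. The non-activated control stood at 9.74 for Eif2ak2, 6.15 for Ddx58 and 7.56 for Apobec1, so E18 was below it for each.

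Gbp7 and Gbp5, guanylate-binding GTPases that act in cell-autonomous defence, were 2.37-fold and 2.04-fold lower with E18. Gbp7 stood at 7.47 in the control, 6.23 with E18 and at a median of 6.88 with the other 8 compounds. Gbp5 stood at 8.97 in the control, 7.95 with E18 and at a median of 8.27. Gbp5 with E18 was within the range of the other 8 compounds (4.52 to 8.86), while Gbp7 with E18 was below all of them but E29. Uba7, the activating enzyme for ISG15 conjugation, was 2.32-fold lower (8.24 and 7.02). Nlrc5, the transactivator of MHC class I genes, was 2.69-fold lower (7.04 and 5.61), close to the floor of 5.57 below which a gene could not be detected on the E18 array. Nlrc5 was as low or lower with 4 of the other 8 compounds, whose values ran from 4.53 to 6.65.

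The promoters of 4 of these genes are shown because they hold an ISRE, the element through which interferon-activated factors bind. RefSeq promoters (assembly GRCm38.p6, 300 bases around the start) were matched for 14 of the 19 lower genes, with 16 promoters, and the search covered GAAA, any 2 bases and GAAA again, on either strand. A match was found for 5 genes: Clec2d, Ddx58, Eif2ak2, Gbp5 and Gbp7. Of all 32851 promoters in the table, 3.44% held one. Capitals mark the match, and each sequence is written 5′ to 3′ along the gene's strand.
Clec2d: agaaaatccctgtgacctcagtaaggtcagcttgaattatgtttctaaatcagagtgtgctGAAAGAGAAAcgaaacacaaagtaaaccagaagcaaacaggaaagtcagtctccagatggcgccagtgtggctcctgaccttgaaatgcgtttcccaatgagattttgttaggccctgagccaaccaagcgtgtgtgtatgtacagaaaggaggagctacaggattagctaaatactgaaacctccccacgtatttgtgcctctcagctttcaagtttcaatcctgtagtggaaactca
Eif2ak2: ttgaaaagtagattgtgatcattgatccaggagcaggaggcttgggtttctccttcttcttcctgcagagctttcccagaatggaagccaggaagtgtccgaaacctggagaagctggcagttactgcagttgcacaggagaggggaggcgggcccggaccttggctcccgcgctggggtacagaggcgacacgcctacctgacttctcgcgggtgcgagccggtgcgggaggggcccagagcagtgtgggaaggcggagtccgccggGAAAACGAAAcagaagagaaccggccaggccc
Ddx58: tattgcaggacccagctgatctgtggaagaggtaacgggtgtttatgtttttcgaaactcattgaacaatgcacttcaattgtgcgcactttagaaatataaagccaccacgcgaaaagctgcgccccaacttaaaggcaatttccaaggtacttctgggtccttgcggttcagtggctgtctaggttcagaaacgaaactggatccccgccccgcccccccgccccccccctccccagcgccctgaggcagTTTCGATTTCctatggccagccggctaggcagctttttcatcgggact
Gbp7: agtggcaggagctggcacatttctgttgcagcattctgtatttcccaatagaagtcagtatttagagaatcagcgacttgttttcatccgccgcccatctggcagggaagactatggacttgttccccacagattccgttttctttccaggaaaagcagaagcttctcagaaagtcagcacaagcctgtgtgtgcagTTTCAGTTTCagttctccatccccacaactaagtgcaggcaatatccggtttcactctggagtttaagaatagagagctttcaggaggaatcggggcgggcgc
Clec2d is at chr6:129180365-129180664 (plus strand), Eif2ak2 at chr17:78882523-78882822 (minus strand), Ddx58 at chr4:40239776-40240075 (minus strand) and Gbp7 at chr3:142530086-142530385 (plus strand). The match starts at position -189 from the start for Clec2d, -53 for Gbp7, 2 for Ddx58 and 18 for Eif2ak2. The IFN-γ-activated site TTCNNNGAA, which reads the same on both strands, was found in 3 of the 14 genes (Eif2ak2, Gbp5 and Gbp7), against 8.30% of all promoters. A cyclic AMP response element (TGACGTCA, the same on both strands) was found in none of the 14, against 1.79%, and the AP-1 element TGANTCA on either strand in 1 (Uba7), against 7.81%. The 2 promoters matched for the higher genes held none of the 4 motifs. A match describes the letters in this window and does not show binding.

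The other lower genes have varied roles. Zbtb7c, a zinc finger transcription factor, stood at 7.50 without activation, 8.83 in the control, 7.20 with E18 and 5.87 with E4, and the other 8 compounds ran from 6.13 (E29) to 8.64 (E33) with 7.90 the lowest without E29. It was the only lower gene besides Clec2d that was also 2-fold below the other 10 activated arrays by their median (2.19-fold). Lcn2, a siderophore-binding lipocalin of reactive astrocytes, stood at 12.30 in the control and was 2.46-fold lower with E18, while the non-activated control stood at 11.91. Lcn2 is the one pan-reactive astrocyte gene of 10 measured that was 2-fold lower, and the median change of that list was 0.02.

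Mlkl, the executor of necroptosis, was 2.12-fold lower (7.67 and 6.58), and Dram1, a lysosomal membrane protein linked to autophagy, 2.17-fold (6.93 and 5.81). Slc2a6, of the sugar transporter family, was 2.22-fold lower than the control (8.49 and 7.34) but only 1.04-fold below the median of the other 10 activated arrays. P2ry6, a receptor for extracellular nucleotides, behaved in the same way, at 2.38-fold and 1.19-fold. The folds of Dennd3, Ccrl2 (an atypical chemokine receptor) and Pes1 (a ribosome assembly factor) lay between 2.01 and 2.18 below the control.

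The control array was high for most of the lower genes. It was the highest of the 11 activated arrays for 15 of the 19 lower genes, as it was for 6.59% of all measured genes. These genes were chosen for a control value 2-fold above E18, so a high control is partly built in. The share over all genes is therefore no like baseline. The part of the high control in the result was not tested beyond a second reference, the median of the other 10 activated arrays. All 19 genes were also below that median, with a median change of -0.60 in place of -1.15, and 11 of them were at least 1.5-fold lower. The E18 values that chose the genes enter this comparison too, and the control is among the 10, so the direction is not independent of the choice.

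Of the 3 higher genes, Rbm15 and Dusp4 changed by similar amounts against both references, and Hmgb2 by 1.07 and 0.74. Rbm15, an RNA-binding adaptor of the RNA methylation complex, stood at 6.17 without activation and 6.12 in the control, 7.35 with E18 and 8.69 with E4. The other 8 compounds ran from 4.94 (E29) to 6.84 (E21) with a median of 6.15. Rbm15 was 2.34-fold above the control and 2.29-fold above the median of the other 10, and E4 alone was higher. Dusp4, a phosphatase that inactivates MAP kinases in the nucleus, stood at 6.38 in the control, 7.39 with E18, 8.34 with E4 and 4.48 to 6.96 with the other 8 compounds, again with E4 alone above E18. Hmgb2, a chromatin protein of the HMG box family, stood at 7.91 in the control and 8.97 with E18, the highest of the 11 activated arrays, with E14 at 8.78 and E4 at 8.71.

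With the other 10 activated arrays as the reference, 4 of 7349 genes (0.0544%) differed 2-fold: Clec2d and Zbtb7c were lower (0.0272%), and Rbm15 and Eid3 were higher (0.0272%). Leaving E29 out of that median also gave 4 genes. Eid3 was detected on 2 of the 12 arrays, E18 at 6.51 and E4 at 8.35, while the control read 4.49 and the other 8 compounds 4.47 to 5.39, all undetected. Eid3 was therefore at least 1.98-fold above the control with E18. At 1.5-fold, 33 genes were higher (0.449%) and 52 lower (0.708%) against this median, and 57 higher (0.776%) and 211 lower (2.87%) against the control. Against both references, 19 genes were higher and 43 lower at 1.5-fold.

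**Figure D2:**
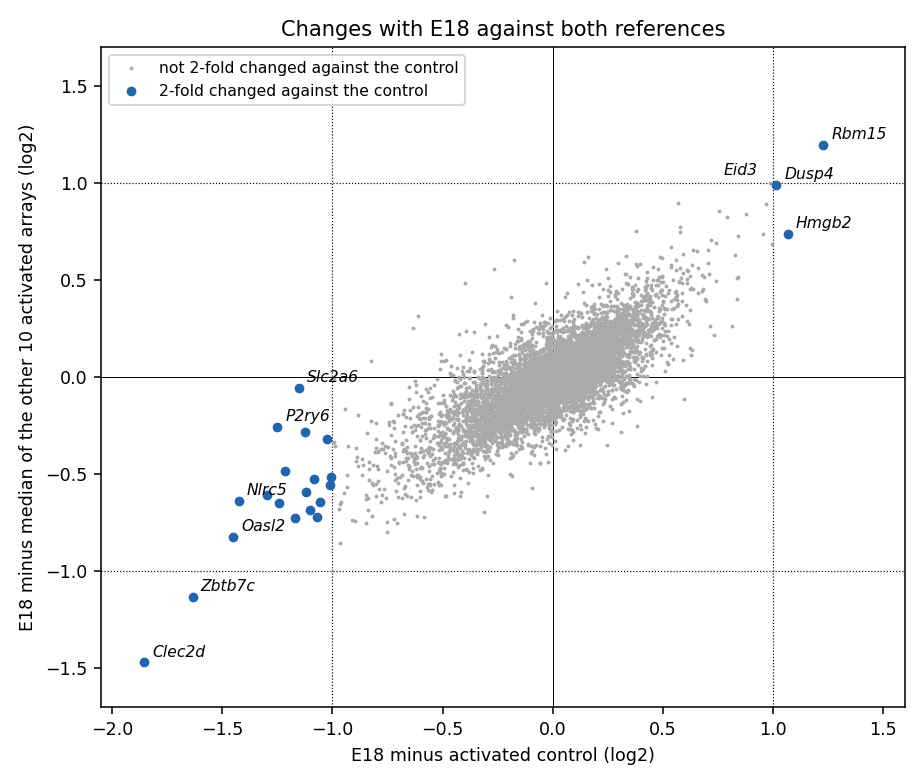
Change with E18 against the activated control (x axis) and against the other 10 activated arrays, as their median (y axis), in log2 units, for the 7349 measured genes. Dotted lines mark 2-fold; Clec2d, Zbtb7c and Rbm15 pass both, and the other lower genes lie nearer 0 on the y axis than on the x axis.

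Most of the 22 genes had the same sign and a larger change with E4. Both compounds share the activated control array, so the values are set side by side. Of the 19 lower genes, 16 were also 2-fold lower with E4, where 2.88% of 7494 genes were lower, and of the 3 higher genes 2 were also 2-fold higher, where 0.494% were. E4 lay further from the control than E18 for 15 of the 19 and 2 of the 3. Zbtb7c changed by -1.63 with E18 and -2.96 with E4, Parp14 by -1.05 and -2.34, Pes1 by -1.01 and -2.01, and Rbm15 by 1.23 and 2.58. The lower genes that were not 2-fold changed with E4 were Apobec1 (-1.17 with E18 and -0.64 with E4), Ddx58 (-1.07 and -0.42) and Ccrl2 (-1.01 and -0.25). Hmgb2 was the higher one (1.07 and 0.81).

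With E4 set against the median of the 8 other compound arrays, the comparisons of E18 and of E4 share no array. Then 9 of the 19 lower genes (47.4%) were 2-fold lower with E4, where 1.52% of 7490 genes were, and 2 of the 3 higher genes were 2-fold higher, where 0.614% were. At 1.5-fold, 97 of the 211 lower genes (46.0% of them and 18.8% of the 516 genes lower with E4) were lower with E4, where 6.89% of all genes were, and 19 of the 57 higher genes (33.3%) were higher, where 2.86% were. The same count with E29 was 90 of 211 (42.7%), where 19.8% of all genes were lower. It was 12 with E33 (5.69%, where 2.44% of all genes were), 9 with E14 (4.27%, where 0.362% were) and 3 with E19 (1.42%, where 0.434% were). With E5 and E23 it was 1 (0.474%, where 0.324% and 0.163% were), and with E20 (0.419%) and E21 (0.266%) 0. The 9 were 33.3% of the 27 genes lower with E14. Of the 57 higher genes, 12 (21.1%) were higher with E29, where 27.0% of all genes were. With E14 6 (10.5%) were higher, where 0.362% were, and each other compound had at most 2.

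**Figure D3:**
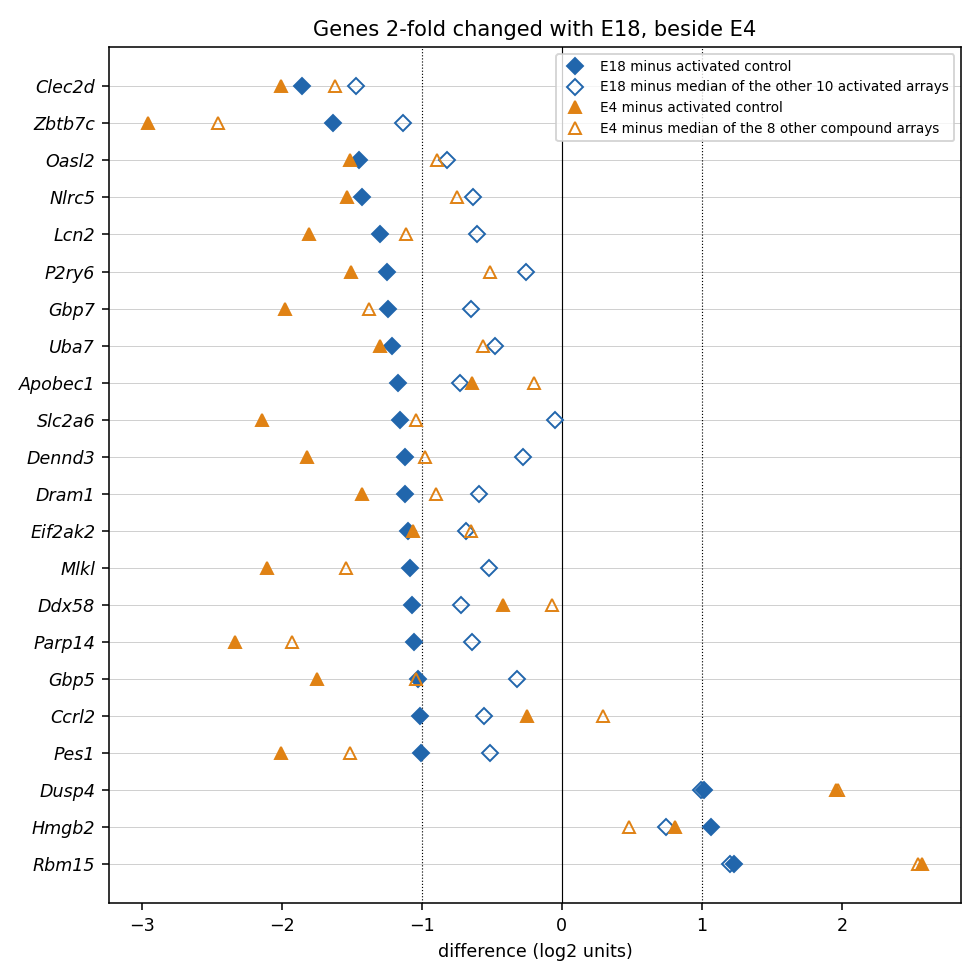
Differences in log2 units (x axis) for the 22 genes 2-fold changed with E18 (y axis). Filled symbols are against the activated control that both compounds share, and open symbols are against the medians of other activated arrays; E4 lies further out than E18 for 15 of the 19 lower genes and for Dusp4 and Rbm15.

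**Figure D4:**
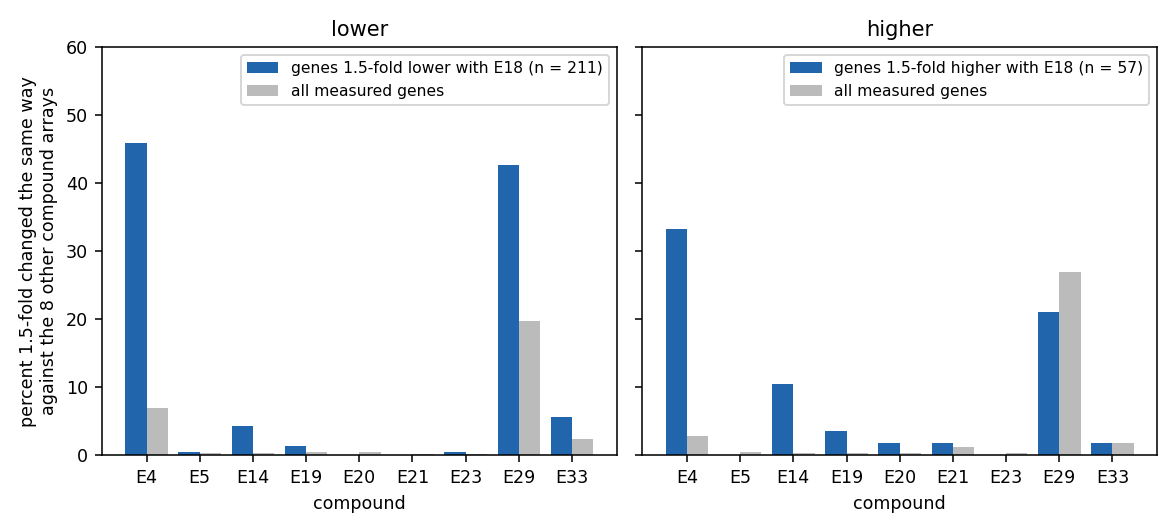
Percent of the genes 1.5-fold lower (left) or higher (right) with E18 that changed the same way with each other compound against the 8 remaining compound arrays (blue), beside the percent of all measured genes (grey). E4 has 46.0% against 6.89% for the lower genes, E29 42.7% against 19.8% and E14 4.27% against 0.362%. For the higher genes E4 has 33.3% against 2.86%, E29 21.1% against 27.0% and E14 10.5% against 0.362%.

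At 1.5-fold with both E18 and E4 and against both the control and the other activated arrays, 35 genes were lower and 12 higher. With E4, 9.57% of all genes were lower and 4.54% higher than the control at 1.5-fold. Those shares use E4 and the control reference alone, so they are no like baseline for the 35 and 12. The lower ones included Pik3r1, a regulatory subunit of phosphoinositide kinase (-0.84 with E18 and -1.19 with E4 against the control), Notch4, a Notch receptor (-0.84 and -1.21), and Kmt5c, a histone methyltransferase (-0.72, and -0.94 with E4 as a bound, since E4 did not detect it). The higher ones included Errfi1, a feedback inhibitor of the EGF receptor (0.75 and 1.32), and Ppp1r15b, a regulatory subunit of a phosphatase (0.72 and 1.34). Thbs1, the secreted protein thrombospondin, was also among them (0.66 and 0.61). Parp9, an interferon-stimulated gene, went against most of its list, at 7.98 in the control, 8.82 with E18 and 9.47 with E4.

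Some E18 changes were small or absent with E4. The following genes were chosen after their values were seen, as those at least 1.5-fold changed against both references while E4 lay within 0.3 log2 units of the control: 11 were lower and 2 higher. Over the 11, the change with E4 ran from -0.298 (Ice2) to 0.11 (Lpar4), so several fell just inside that limit. Net1 stood at 7.03 in the control, 6.13 with E18 and 7.02 with E4, and E29 alone was lower than E18 (4.94, undetected). Per2, a repressor of the circadian clock, stood at 7.89, 7.05 and 7.88, and again E29 alone was lower (5.53, undetected). Its decrease was the largest of the 13 clock genes measured, whose median was 0.03. Lgals8, a galectin, stood at 7.90, 7.20 and 8.01, and E18 was the lowest of the 11 activated arrays. Pmepa1, an inhibitor of TGF-beta signalling, stood at 5.78 in the control, 6.52 with E18 and 5.90 with E4, and E18 was the highest activated array. Rad52, a recombination protein, was likewise highest with E18 (9.27, against 8.68 in the control). The other lower genes of this kind were Nnmt, Lpar4, Txnip, C2cd3, Pdik1l, Dok4, Ice2 and N4bp2l1, with changes from -0.96 (Nnmt) to -0.60 (N4bp2l1). For Nnmt, Txnip, Pdik1l and Dok4, E18 ranked 2 from the lowest of the 11 activated arrays. For Lpar4, C2cd3, Ice2 and N4bp2l1 it was the lowest. For Pdik1l, undetected with E18, the change is a bound. Smurf1, a ubiquitin ligase of the BMP pathway, falls outside this choice, since E4 was 0.33 above the control. It was also highest with E18 (7.98, against 7.01 in the control and 7.34 with E4).

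Interferon lists lay below the control as groups. The lists were drawn up with earlier results of these data known, so their direction is a description. Among the 25 type I interferon-stimulated genes measured, 4 were 2-fold lower (Oasl2, Eif2ak2, Ddx58 and Parp14), where 0.259% of all genes were. At 1.5-fold 10 were lower, against 2.87% of all genes, and 1 was higher, against 0.776%. Their median change was -0.51 against the control and -0.10 against the other 10 activated arrays, beside a median of 0.01 over all genes. Of 12 GTPases of the IFN-γ response, 2 were 2-fold lower, against 0.259% of all genes, and 7 were 1.5-fold lower, against 2.87%, with medians of -0.60 and -0.19. The control was the highest of the 11 activated arrays for 10 of the 25 and for 7 of the 12.

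Antigen presentation genes, interferon transcription factors and receptors changed less. Of 16 antigen presentation genes, 1 was 2-fold lower (Nlrc5), where 0.259% of all genes were, and Tap1, a peptide transporter, was 1.56-fold lower. Psmb8, an immunoproteasome subunit, was 0.50 log2 units higher as a bound, since the control did not detect it. The list median was -0.08. Of 19 interferon transcription factors, receptors and SOCS genes, none was 2-fold changed, with a median of -0.25 and the lowest change in Ifnar2, a chain of the type I interferon receptor (-0.83 against the control and 0.09 against the other 10). Genes that activation raised strongly differed among themselves. Cxcl10, a T cell chemokine raised 77.1-fold by activation, stood at 14.13 in the control and 13.99 with E18, and Cd274, raised 65.8-fold, at 13.22 and 13.13. Ifi47, a GTPase raised 70.5-fold, changed by -0.99 with E18, and Parp14, raised 23.5-fold, by -1.05. Irf1, raised 8.12-fold, stood at 14.15 and 14.03. The highest value of any probe was 14.46 on both arrays, and 18 probes were brighter than Cxcl10 and 16 brighter than Irf1 in the control.

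Cytokines and NF-kB genes depended on the reference. Of 15 measured cytokines and chemokines none was 2-fold changed, and the median was -0.21 against the control and 0.04 against the other 10. Il6, a cytokine, stood at 6.76 in the control, 5.76 with E18 and 6.99 with E4, and E18 was 1.99-fold below the control. Only 5 arrays detected Il6: the control, E18, E4, E21 and E23. The median of the other 8 compounds, 5.36, therefore came from undetected values. The median of the other 10 fell between the floors of E19 (5.56) and E29 (5.99). E18 was 1.01-fold below that median, which rests on floors and does not place E18 level with the other compounds. Cxcl9 (-0.88 against the control and -0.20 against the other 10) and Ccl5 (-0.64 and 0.26) depended on the reference. Ccl2 changed by 0.19 and Ccl7 by 0.02, both chemokines that attract monocytes. Of 16 NF-kB genes none was 2-fold changed, with medians of -0.33 and 0.06. Tnfaip3 and Nfkbia, feedback inhibitors of NF-kB, changed by -0.39 and 0.21. Nos2, the inducible nitric oxide synthase, was detected on neither array.

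**Figure D5:**
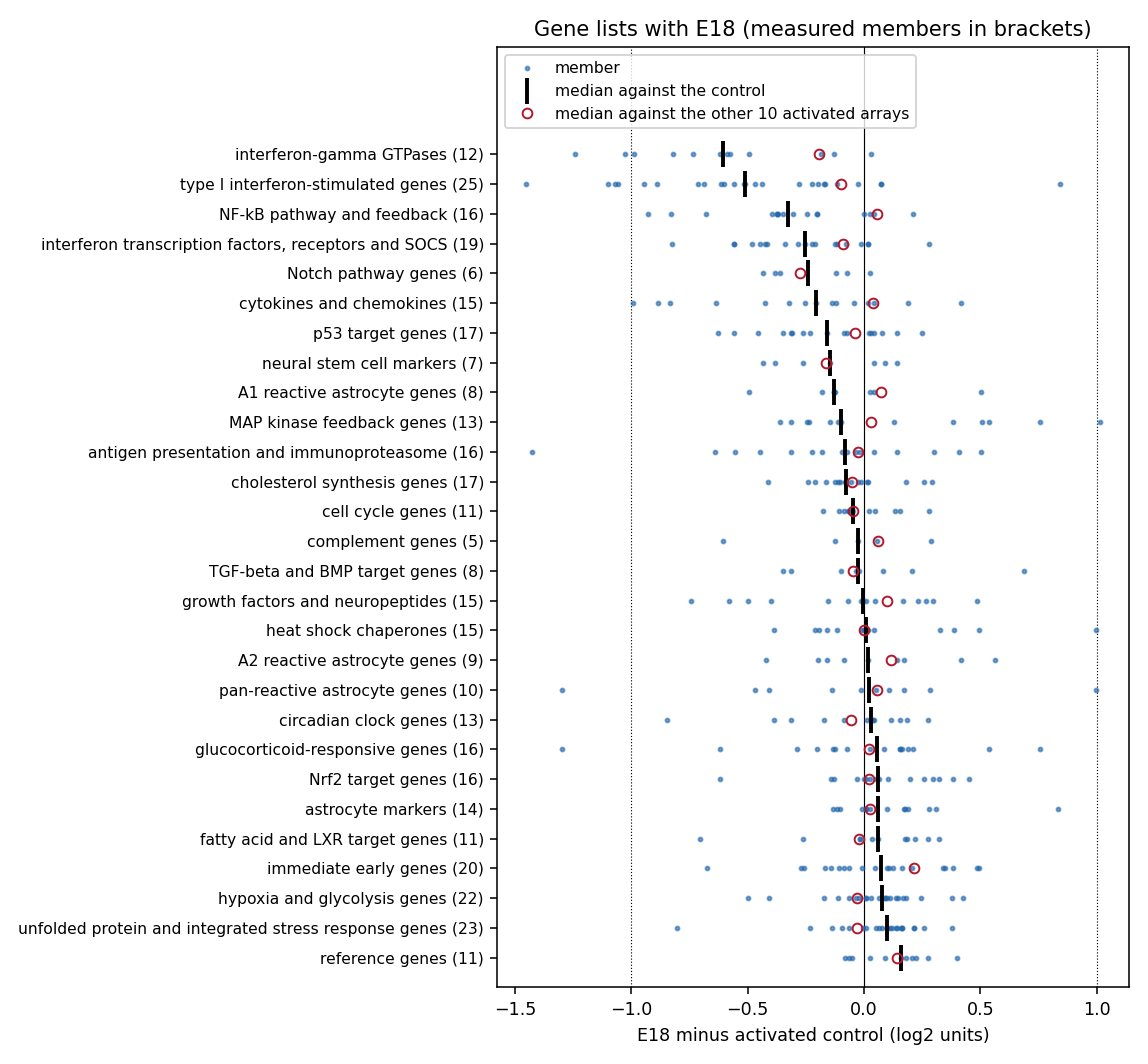
Change with E18 against the activated control in log2 units (x axis) for the members (blue) of the 28 gene lists with at least 5 measured members (y axis). Black bars are list medians against the control and red circles medians against the other 10 activated arrays; the interferon, NF-kB and cytokine lists move towards 0 with the second reference.

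Immediate early genes were near the control with E18. None of the 20 measured was 2-fold changed with E18, and their median was 0.07 against the control and 0.21 against the other 10 activated arrays. With E4, 7 were 2-fold higher, where 0.494% of all genes were. Egr1, an immediate early transcription factor, stood at 9.16 in the control, 9.27 with E18 and 10.52 with E4, and Fos, a subunit of AP-1, at 8.95, 8.78 and 9.99. Of 13 MAP kinase feedback genes 1 was 2-fold higher, Dusp4, where 0.0408% of all genes were, and Errfi1 was 1.69-fold higher. The stress and metabolic lists were near the control: medians were 0.06 for Nrf2 targets, 0.01 for heat shock chaperones, 0.10 for the unfolded protein and integrated stress response and -0.08 for cholesterol synthesis. Single members stood out against the control, and less so against the other 10. Hspb1, a small heat shock protein, stood at 5.76 in the control and 6.75 with E18. Its changes against the 2 references were 0.996 and 0.69. Hmox1, haem oxygenase, stood at 12.31 and 12.76, with changes of 0.45 and 0.06. Nupr1, a stress-induced regulator, changed by -0.81 and -0.38. Of 6 Notch pathway genes 5 were below the control, where 48.9% of all genes were, with medians of -0.24 and -0.27 against the 2 references. Notch4 is not in that list.

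Genes that activation raised moved both ways with E18, with a median near the control, and genes that it lowered lay mostly below the control. Both groups were chosen from the non-activated control and the median of the other 9 compound arrays, so neither array compared chose them. Of 178 raised genes, 7 were 2-fold lower (3.93%, against 0.259% of all genes) and 2 higher (1.12%, against 0.0408%). At 1.5-fold, 30 were lower (16.9%, against 2.87%) and 13 higher (7.30%, against 0.776%). Their median was -0.07 against the control and 0.13 against the other 10. Of 168 lowered genes, 145 (86.3%) were below the control, against 48.9% of all genes, with medians of -0.32 and -0.20. The control was the highest activated array for 32 of the raised and 22 of the lowered genes, and for 6.59% of all. The share of lowered genes below the same control was 72.8% with E4 and 38.7% to 69.2% with the other 8 compounds. These shares do not cover the same genes: 187 lowered genes were measured with E5, for instance, and 168 with E18.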

How the data were processed

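Astrocyte RNA was hybridised to 12 Illumina bead arrays, 1 per group. The authors deposited the bead intensity of each of 25697 probes, not normalised per the file header, and for each value a detection p-value from the same deposited table. The submitters' processing notes name GenomeStudio 2010.3. Background subtraction is not stated, and how the authors' second deposited table of processed intensity was made is not given in the sources. All 12 of its columns followed their own sample best, on a linear scale, with 45.2% of probes at a floor of 10 and array medians from 14.9 to 15.0.

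Background correction, quantile normalisation and the log2 scale came from neqc of limma 3.58.1 (R 4.3.3, offset 16). Counts used Python 3.11.15 and pandas 2.3.3. Of the probes, 23978 had 1 gene symbol and 1719 were not listed in the platform annotation. The brightest probe stood for a gene. Undetected values were raised to the lowest detected value of the array, which makes a change a bound. A change was called at 2-fold. The script, not these calls, was tested on simulated data. The number of arrays limits the precision, and groups of 1 array allow no test between them.

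Named genes were those 2-fold changed, up to 15 per direction 1.5-fold changed against both references or also with E4, up to 4 members per list and a fixed panel. Members and the 36 gene lists were chosen with earlier results of these data known. Alternatives were other scalings, backgrounds, filters, probes, folds and reference arrays.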

Additional observations from a re-analysis of the deposited data

How the results depend on the processing

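No paired analysis was possible because each group holds 1 array, so replicates could not be left out in turn either. Over 88 alternatives of the 22 called genes all 88 kept their sign. Each alternative uses the E18 array that chose the genes, and the control again, alone or among the 10. A kept sign is therefore partly built in and is no independent check. Of the 22, 21 were 2-fold in the authors' values, 20 after scaling to a common median, 5 without background correction and 3 against the median of the other 10 arrays. The 2-fold genes against the control numbered 22 (3 higher, 19 lower). After scaling to a common median they were 41 (1 and 40), then 72 (1 and 71) with reference gene scaling, 5 (0 and 5) without background correction, 8 (0 and 8) with an offset of 50, 98 (35 and 63) in the authors' processed values and 268 (57 and 211) at 1.5-fold. The higher genes were 5 with a detection p-value under 0.05 and 6 with no filter. Against the median of the other 10 arrays there were 4 (2 and 2), then 1 (0 and 1) without background correction, 85 (33 and 52) at 1.5-fold, and 1 higher gene with a common median. Genes shared with E4 were 18 (2 and 16), then 32 (1 and 31) with a common median, 5 (0 and 5) without background correction, 185 (32 and 153) at 1.5-fold, 5 (of which 2 lower) with both compounds set against the other 9 activated arrays by their median, and 11 (9 lower) with E4 against the 8 other compounds, an alternative chosen after seeing the data, as was counting from the median of all genes. Of 28 list medians, 11 changed sign against the other 10 arrays, among them A1 reactive astrocyte genes (-0.13 to 0.07). The median of immediate early genes went from 0.07 to 0.21. Other medians under an alternative were -0.10 for type I interferon genes against the other 10 arrays (-0.17 with no filter), -0.19 for GTPases, 0.0388 for cytokines, 0.0553 for NF-kB genes and 0.13 for genes raised by activation. The cause was not tested. Dim genes are limited by the floor of 5.57 log2 units with E18 and 5.52 in the control.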
